A study of Homo sapiens with 23 samples.

Results

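The genes described here encode the subunits, assembly chaperones and regulators of the proteasome, and were taken from a PRO-seq time course in T47D cells after targeted degradation of the transcription factor TRPS1. They are the protein-coding genes of the counts table whose GENCODE v44 symbol starts with PSMA, PSMB, PSMC, PSMD, PSME, PSMF or PSMG followed by a number. The rule found 50 of the table's 60605 genes, and used no measured value. Of these, 48 are proteasome genes proper, and 2, PSMC3IP and PSME3IP1, share only the spelling. PSMC3IP encodes a cofactor of meiotic recombination, and PSME3IP1 a protein that binds the nuclear proteasome activator encoded by PSME3. A further 51 PSM symbols of GENCODE are not protein coding and were not analysed here.

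PRO-seq maps engaged RNA polymerases in permeabilized cells, so its counts report transcription in progress and not the amount of mRNA. T47D is a luminal, estrogen receptor-positive breast cancer line, and all 23 libraries came from a single clone, dTAG-TRPS1 Clone 28, whose TRPS1 protein carries a degron tag at its own locus. Control cells received DMSO at 0.1% for 24 h (n = 4). Treated cells received dTAG-13 and dTAG-V-1 at 50 nM each (together dTAG) for 0.5 h, 1 h, 2 h, 4 h (n = 4 each) or 24 h (n = 3). The tag is shared by treated and control cells, and no untagged cells with dTAG were analysed here, so effects of the ligands and of TRPS1 loss cannot be told apart. The replicates were treated and harvested at different times of 1 day, so p-values measure the spread between harvests of 1 clone. With a replicate block (replicate number as a term of the fit), they measure the spread left once differences among harvests are fitted.

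The proteasome degrades proteins marked with ubiquitin. Its 20S core is a barrel of alpha rings, which gate the entry, and beta rings, which hold the proteolytic sites, and the 19S cap recognises, unfolds and feeds in the substrate. The dTAG ligands bring the tagged protein to a ubiquitin ligase, and the proteasome destroys it. When proteasome activity is too low, the transcription factor encoded by NFE2L1 escapes its own degradation, is cut free by the protease encoded by DDI2, and raises transcription of subunit genes through antioxidant response elements in their promoters. The comparisons with DMSO therefore ask whether transcription of these genes differed while the cells degraded a single tagged protein.

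The promoters below show where short motifs, among them the core letters of such elements, lie in members that the results name. RefSeq promoters (GRCh38.p14, from 250 bases before to 50 bases after the start) matched 44 of the 50 members. PSMA7, PSMB1, PSMB6, PSMB7, PSMD4 and PSMG3 were not matched. The 190 bases farthest upstream are printed 5′ to 3′ on the gene's strand. Capitals mark the core TGANNNNGC in PSMB5 (which also holds it on the other strand), PSMB3 and PSMD12. They mark the longer TGANTCAGC in PSMD9 and CCAAT in PSMC3IP. The PSMD9 stretch also holds other core matches, on both strands, left in lower case. PSMB5 is at chr14:23035281-23035470 (minus strand), PSMB3 at chr17:38752491-38752680 (plus), PSMD12 at chr17:67366638-67366827 (minus), PSMD9 at chr12:121888540-121888729 (plus) and PSMC3IP at chr17:42577892-42578081 (minus).
PSMB5: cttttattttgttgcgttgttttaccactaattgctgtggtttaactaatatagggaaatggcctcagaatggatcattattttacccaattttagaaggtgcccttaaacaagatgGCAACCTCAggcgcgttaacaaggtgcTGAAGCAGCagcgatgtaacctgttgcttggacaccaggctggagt
PSMB3: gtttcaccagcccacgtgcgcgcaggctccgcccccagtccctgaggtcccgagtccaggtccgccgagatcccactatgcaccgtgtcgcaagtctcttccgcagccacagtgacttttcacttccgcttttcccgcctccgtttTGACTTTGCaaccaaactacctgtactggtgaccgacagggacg
PSMD12: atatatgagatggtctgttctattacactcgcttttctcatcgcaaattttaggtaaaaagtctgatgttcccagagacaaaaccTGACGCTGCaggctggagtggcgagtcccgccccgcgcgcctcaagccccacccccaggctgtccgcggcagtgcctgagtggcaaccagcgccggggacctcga
PSMD9: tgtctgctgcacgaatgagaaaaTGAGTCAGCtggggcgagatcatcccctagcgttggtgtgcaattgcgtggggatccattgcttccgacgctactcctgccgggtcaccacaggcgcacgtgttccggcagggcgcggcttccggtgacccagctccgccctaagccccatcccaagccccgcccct
PSMC3IP: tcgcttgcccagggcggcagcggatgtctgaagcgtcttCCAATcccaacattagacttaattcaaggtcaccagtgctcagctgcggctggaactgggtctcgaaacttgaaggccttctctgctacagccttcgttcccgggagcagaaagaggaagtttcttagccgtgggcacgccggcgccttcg

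Over both strands of the whole window, the core TGANNNNGC was present in 27 of 44 member promoters (61.4%) and in 42.1% of 27305 RefSeq promoters of the same length. The longer TGANTCAGC, every match of which also matches TGANNNNGC, was present in the PSMD9 promoter alone among members (2.27%, against 1.35% of all promoters). CCAAT was found in 21 members (47.7%, against 35.7%), and the ETS core CCGGAAG in 14 (31.8%, against 10.7%). The GATA motif GATAAG, a form of the sequence that TRPS1 binds, was found in PSMC6 only (2.27%, against 6.36%). Member promoters had a median GC content of 62.0%, against 58.3% over all promoters. These matches describe letters in a window and not bound sites.

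Libraries held 4408544 to 17571616 counts (median 9768427), and replicate 1 was the shallowest (median 7001408). Summed luminal markers (ESR1, PGR, GATA3, FOXA1, KRT8, KRT18, KRT19 and XBP1) reached 6124 to 7641 CPM (counts scaled to a common library total with TMM factors), whereas the basal, fibroblast and leukocyte lists summed to 40.6 CPM or less. The TRPS1 gene itself stood at 9171 ± 892 CPM in DMSO (SD, n = 4) and at 11122 ± 1195 CPM at 24 h (n = 3): degradation acts on the protein, so this count does not check it. Without a replicate block it passed the test at none of the 5 times (adjusted p = 0.288 to 0.831, edgeR quasi-likelihood test), and with the block it was called higher at each of them (adjusted p = 0.000135 to 0.0558, edgeR).

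Of the 50 members, 49 passed the low-count filter, which kept 26057 genes. The exception was PSMB11, the beta subunit of the thymus, with 0 to 2 counts per library. Members lie on 17 chromosomes, with 8 each on chromosomes 14 and 17. Gene spans of 13 members overlap another gene on the same strand, and those of 18 overlap one on the opposite strand only. The use of strand in counting was not stated, so it was checked on processed pseudogenes inside protein-coding hosts. Their count per kb was 0.0502 of the host's when they lay on the opposite strand (median of 1035) and 1.09 when on the same strand (median of 482), so opposite-strand overlaps added little in general. The 13 same-strand members remain uncertain.

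In DMSO, the members differed widely in polymerase density per kb of gene span. Among alpha subunits, PSMA7 had 5.56 ± 0.40 CPM per kb (SD, n = 4), whereas PSMA8, the testis form, had 0.0103 ± 0.0031. PSMA1 also stood low at 0.231 ± 0.011, on a span of 138.8 kb, and the start of its matched RefSeq promoter lies 123.2 kb inside that span. Among constitutive beta subunits PSMB4 was highest at 7.66 ± 0.94 and PSMB2 lowest at 1.17 ± 0.06 CPM per kb. PSMC5 (6.39 ± 0.54) and PSMC2 (1.07 ± 0.10) bounded the 19S ATPases, which unfold substrates. The matched RefSeq start of PSMC2 lies 19.1 kb inside its 41.8 kb span. The densities of PSMA1 and PSMC2 thus depend on the start chosen. In the non-ATPase part of the cap, PSMD7 reached 5.30 ± 0.22 CPM per kb and PSMD14, the deubiquitinase, 0.869 ± 0.076. PSMG3 (5.09 ± 0.74) and PSMG2 (0.514 ± 0.016), both chaperones of alpha ring assembly, bounded the assembly factors. Among activators, PSME2 had 7.39 ± 1.22 and PSME4 1.18 ± 0.11 CPM per kb. The highest densities belonged mostly to short genes, such as PSMB4 (2.38 kb) and PSME2 (4.21 kb), and the lowest, PSMB11 aside, to long ones such as PSMD14 (103.3 kb). The share of polymerases paused near the start cannot be separated in a count over the whole span.

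**Figure D1:**
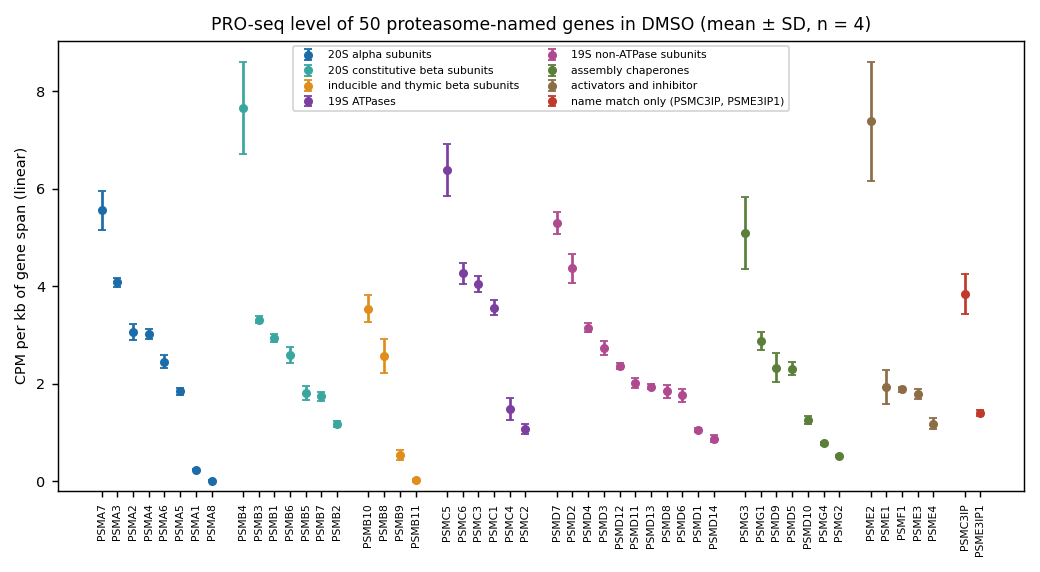
PRO-seq density of the 50 members in DMSO, in CPM per kb of gene span on a linear axis, grouped and coloured by role. Points are means and bars the SD of 4 libraries, and levels run from 0.0103 (PSMA8) to 7.66 (PSMB4).

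Transcription of the members differed little between dTAG and DMSO as a group. Their summed level was 2321 ± 24.0 CPM in DMSO (SD, n = 4), 2375 ± 11.6 (0.5 h), 2359 ± 40.3 (1 h), 2353 ± 32.1 (2 h), 2390 ± 57.0 (4 h) and 2306 ± 14.2 (24 h, n = 3). The 4 libraries at 0.5 h (2364 to 2389 CPM) all lay above the 4 of DMSO (2292 to 2350 CPM). As a share of all counts, without TMM scaling, the same groups overlapped, at 0.219% to 0.246% and 0.225% to 0.236%. The other treated groups overlapped DMSO on the CPM scale.

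The median log2 fold change over the 49 tested members was 0.04 (0.5 h), 0.03 (1 h), 0.02 (2 h), 0.03 (4 h) and -0.01 (24 h), beside 0.01, 0.01, 0.0031, 0.01 and 0.0026 over all tested genes. Between same-numbered libraries the members' median difference varied with an SD of 0.0133 (0.5 h), 0.0177 (1 h), 0.0281 (2 h), 0.0264 (4 h) and 0.0184 (24 h). It was above 0 in all 4 pairs at 0.5 h, 1 h and 4 h, in 3 of 4 pairs at 2 h and in 1 of 3 pairs at 24 h. With total counts in place of TMM factors the medians were 0.0028 at 1 h and 0.0004 at 4 h, and the 24 h median turned to 0.02. With a replicate block the 24 h median was 0.0055. The 24 h group lacks replicate 1, which had the highest mean summed member level on the TMM scale (2383 CPM, against 2327 to 2365 in the others). As a share of all counts, without TMM scaling, replicate 1 stood low instead, at 0.208% to 0.230%, against 0.227% to 0.250% in the others. Values at 24 h without a block are therefore not balanced over harvests.

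No member was called at any single time in the edgeR quasi-likelihood test without a replicate block (Benjamini-Hochberg adjusted p below 0.1 over all 26057 genes). Among all tested genes, the called share was 0.476% (0.5 h), 1.25% (1 h), 0.733% (2 h), 0.833% (4 h) and 0.863% (24 h). At an unadjusted p below 0.05, 2, 2, 1, 2 and 2 of the 49 members passed at these times, or 2.04% to 4.08%, against 7.68%, 9.42%, 7.10%, 7.47% and 7.38% of all genes. For the mean of the 5 time points against DMSO the test called 0 members, against 1.15% of all genes. Over the time course it called 0, against 2.71%. At an unadjusted p below 0.05, 2 and 3 members passed these tests, against 7.64% and 10.9% of all genes. Among the 5 dTAG time points themselves, a comparison chosen after seeing the data, edgeR called 0 members with and without a replicate block. Of all genes, 7.71% were called with the block and 1.97% without it. At an unadjusted p below 0.05, 3 members passed with the block and 2 without it, against 18.1% and 9.9% of all genes. DESeq2 called 0 at each time, for the mean and over the time course, against 1.88% (0.5 h), 2.22% (1 h), 1.85% (2 h), 1.98% (4 h), 2.09% (24 h), 2.04% (mean) and 7.17% (time course) of all genes with an adjusted p, with 0 to 2 members below an unadjusted p of 0.05.

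**Figure D2:**
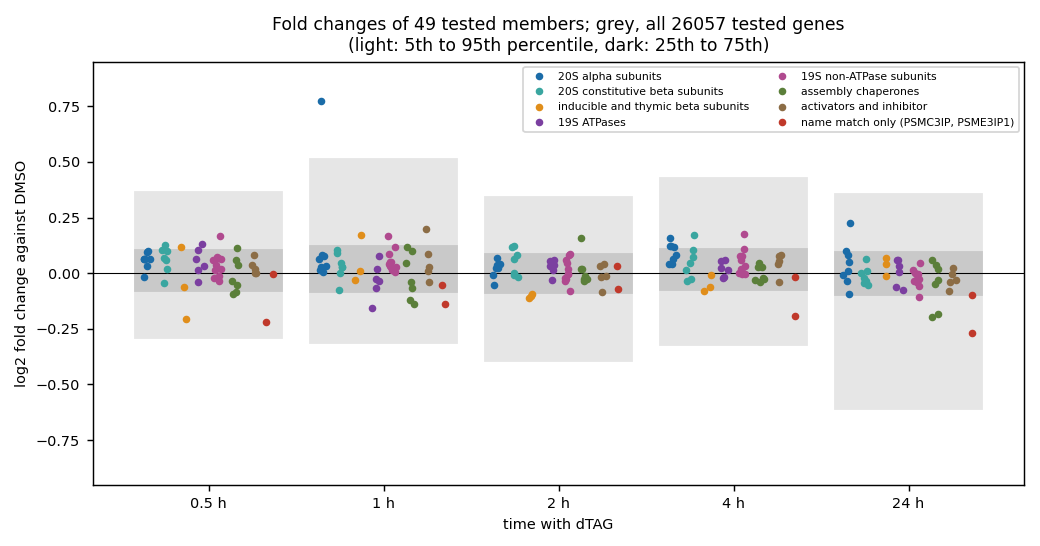
Log2 fold change of each of the 49 tested members against DMSO at each time with dTAG, coloured by role, over grey boxes for all 26057 tested genes (light, 5th to 95th percentile; dark, 25th to 75th). Most members sit within the dark boxes, and the 1 point far above them is PSMA8 at 1 h (0.77).

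Because a missed threshold does not show that values were equal, the 95% intervals of the fold changes were examined. Their median half-width was 0.152 to 0.164 on the log2 scale. For the mean of the 5 time points, 41 of 49 members had an interval wholly within 1.2-fold in either direction and 48 within 1.5-fold. The exception was PSMA8, with an interval from -0.43 to 0.92 and a mean of 7.17 counts per library. At single times, 29 to 37 members lay within 1.2-fold and 47 or 48 within 1.5-fold. At 1 h and 4 h the intervals past 1.5-fold belonged to PSMA8 and PSME1, an activator subunit, and at the other times to PSMA8.

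**Figure D3:**
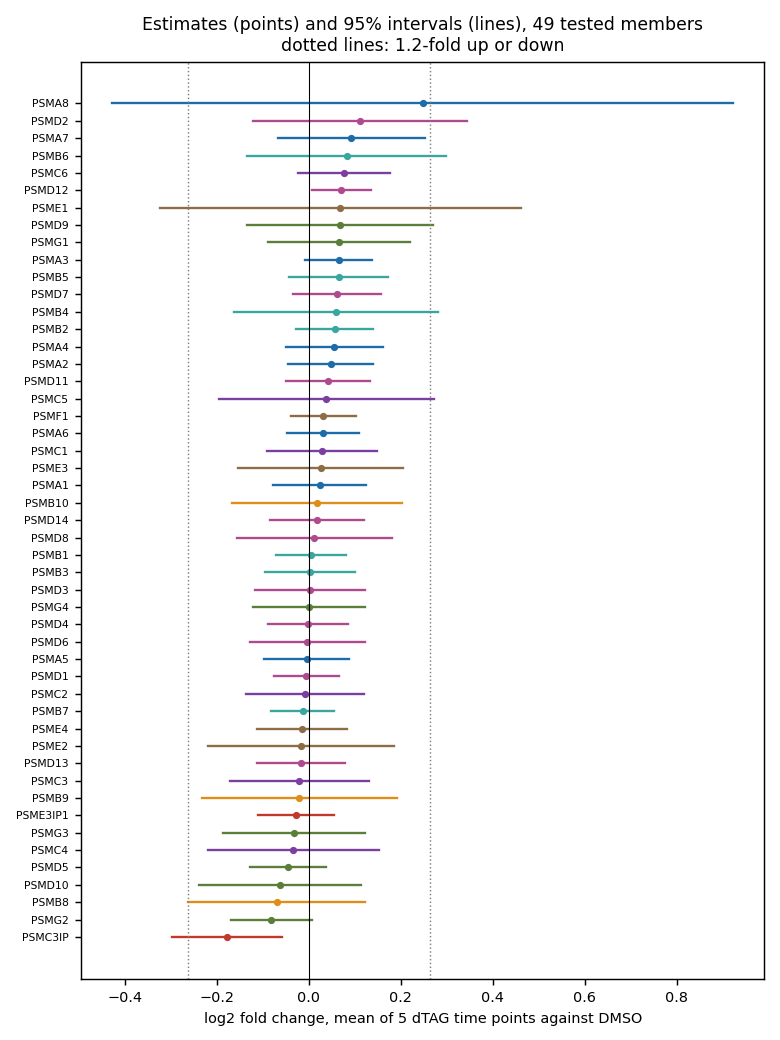
Log2 fold change (points) and 95% interval (lines) of the 49 tested members for the mean of the 5 dTAG time points against DMSO, sorted by value and coloured by role as in the plot of fold changes by time. Dotted lines mark 1.2-fold up and down, and PSMA8, the widest interval, reaches from -0.43 to 0.92.

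The 3 catalytic subunits of the constitutive core are PSMB5 (chymotrypsin-like), PSMB6 (caspase-like) and PSMB7 (trypsin-like). PSMB5 stood at 30.3, 35.3, 33.6 and 36.3 CPM in DMSO, 32.7, 37.8, 36.8 and 38.1 (0.5 h), 31.4, 35.7, 37.2 and 33.4 (1 h), and 34.5, 35.7, 37.0 and 36.3 (2 h). It stood at 34.0, 34.5, 34.7 and 36.4 CPM (4 h), and 31.6, 36.3 and 38.2 (24 h). Each treated group overlapped DMSO. PSMB5 had a log2 fold change of 0.11 after 0.5 h (95% interval -0.03 to 0.24) and of 0.06 after 24 h (-0.08 to 0.21). The 24 h value ranged from 0.0190 without replicate 1 to 0.158 without replicate 2. PSMB5 was higher with dTAG in 15 of 19 same-numbered pairs of treated and DMSO libraries. Here and in later counts of this kind, the 19 pairs share 4 DMSO libraries and are not independent. Such counts were not taken over all genes.

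PSMB6 ranged from 5.54 to 6.44 CPM in DMSO and from 4.99 to 8.50 CPM over the treated libraries. At 2 h its libraries (6.45, 6.55, 6.61 and 6.93 CPM) all lay just above DMSO, with a log2 fold change of 0.12 (95% interval -0.15 to 0.39). PSMB7 ranged from 101.5 to 115.6 CPM in DMSO and from 99.0 to 116.4 CPM with dTAG. Fitted log2 fold changes of PSMB7 were 0.07 (0.5 h) and -0.08 (1 h), with an adjusted p of 0.424 over the time course (edgeR quasi-likelihood test). PSMB7 was thus the most tightly bounded of the 3, at -0.01 for the mean of all times (95% interval -0.08 to 0.06).

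PSMB8, PSMB9 and PSMB10 replace these subunits in the immunoproteasome, which interferon induces. They were transcribed at 10.2 ± 1.37, 8.49 ± 1.64 and 8.34 ± 0.67 CPM in DMSO (SD, n = 4). Per kb of span, PSMB10 (3.54 CPM) lay above, and PSMB8 (2.57 CPM) within, the range of PSMB5 (1.81), PSMB6 (2.59) and PSMB7 (1.74), whereas PSMB9 had 0.540 CPM per kb on a span that starts 10.1 kb upstream of its RefSeq start. PSMB8 and PSMB9 overlap each other on opposite strands on chromosome 6, and PSMB9 and PSMB10 each overlap a same-strand gene. For the mean of the 5 time points their log2 fold changes were -0.07 (95% interval -0.26 to 0.12), -0.02 (-0.23 to 0.19) and 0.02 (-0.17 to 0.20). The PSMB8 value ranged from -0.168 without replicate 3 to -0.0139 without replicate 4. Every treated group overlapped DMSO for PSMB8, PSMB9 and PSMB10, and their intervals were wider than that of PSMB7, at 86.6 to 100.2 mean counts against 1119.

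**Figure D4:**
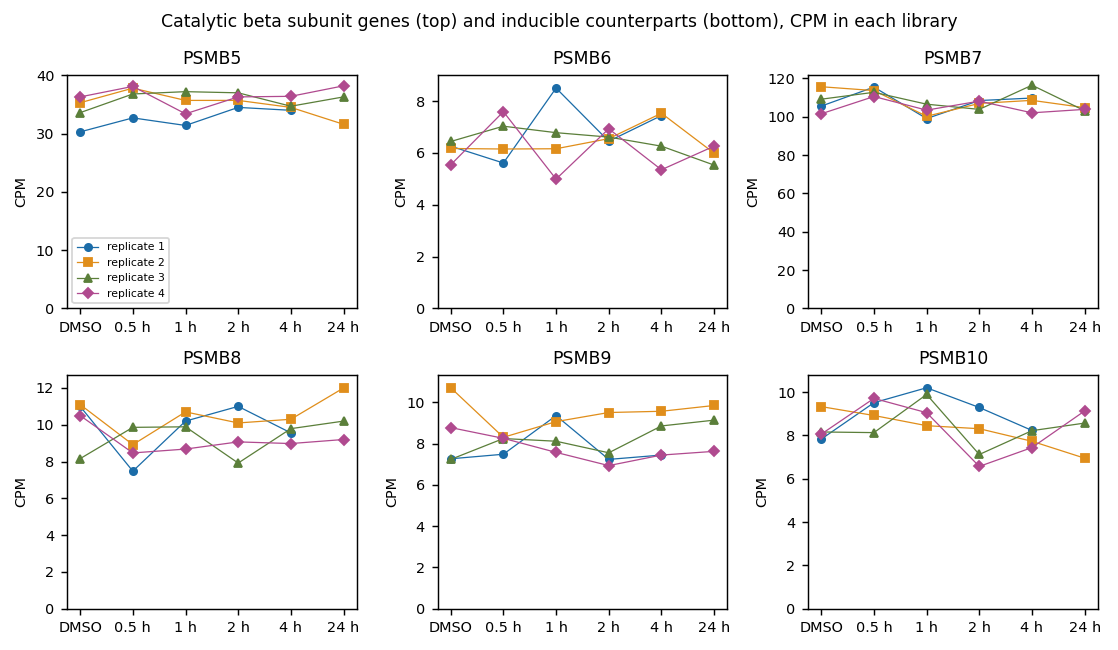
CPM in every library for the catalytic subunit genes PSMB5, PSMB6 and PSMB7 (top) and their inducible counterparts PSMB8, PSMB9 and PSMB10 (bottom), by time with dTAG, on linear axes from 0. Lines join libraries of the same replicate number, and treated and DMSO values overlap for each gene except PSMB6 at 2 h.

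By role, the alpha subunits had a median log2 fold change of 0.06 (0.5 h), 0.05 (1 h), 0.03 (2 h), 0.10 (4 h) and 0.03 (24 h). The constitutive beta subunits had medians of 0.07, 0.03, 0.06, 0.04 and -0.02 at these times. Both core rings thus had medians above that of all genes up to 4 h, with no gene called. The 19S ATPases had medians between -0.03 (1 h) and 0.05 (0.5 h), and the non-ATPase subunits between -0.03 (24 h) and 0.04 (1 h). These medians also lay above that of all genes, except for the ATPases at 1 h and the non-ATPase subunits at 2 h and 24 h. Assembly chaperones had medians below 0 at every time, from -0.04 (1 h) to -0.01 (2 h). The 3 tested inducible subunits had medians of -0.06 (0.5 h), 0.01 (1 h), -0.10 (2 h), -0.06 (4 h) and 0.04 (24 h). Activators and the inhibitor lay between -0.03 and 0.05.

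Among the non-ATPase subunits, PSMD12, a subunit of the cap's lid, had the smallest time-course p in the fit without a block. It stood at 66.3, 66.3, 69.6 and 68.6 CPM in DMSO, 68.6, 68.9, 73.0 and 72.1 (0.5 h), 73.1, 74.7, 71.9 and 74.2 (1 h), and 69.8, 73.8, 69.7 and 73.6 (2 h). It stood at 72.2, 70.5, 70.4 and 72.8 CPM (4 h), and 65.0, 69.2 and 70.7 (24 h). All libraries at 1 h, 2 h and 4 h thus lay above all of DMSO, whereas those at 0.5 h and 24 h overlapped it. The differences were small, and the fitted log2 fold change was 0.12 after 1 h (95% interval 0.03 to 0.21, adjusted p = 0.325, edgeR quasi-likelihood test) and 0.01 after 24 h (-0.07 to 0.09). PSMD12 was higher in 17 of 19 same-numbered pairs.

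PSMG2 encodes a chaperone that pairs with the product of PSMG1 to build the alpha ring. It stood at 38.0, 35.3, 36.4 and 36.2 CPM in DMSO, 34.1, 36.3, 33.4 and 33.8 (0.5 h), 34.8, 32.2, 31.4 and 34.2 (1 h), and 35.2, 36.3, 36.6 and 35.2 (2 h). It stood at 40.9, 39.4, 34.0 and 35.1 CPM (4 h), and 31.9, 30.7 and 33.8 (24 h). All libraries at 1 h and at 24 h lay below DMSO, and those at 2 h and 4 h overlapped it. Fitted log2 fold changes were -0.14 after 1 h (95% interval -0.27 to -0.01) and -0.18 after 24 h (-0.30 to -0.06, adjusted p = 0.263, edgeR quasi-likelihood test). Over the time course the adjusted p was 0.195, and 0.0924 with a replicate block, which made PSMG2 the 1 member called there, against 9.01% of all genes. It was lower in 14 of 19 same-numbered pairs. PSMG2 overlaps SPIRE1 and CEP76 on the opposite strand.

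PSMC3IP, a member by spelling only, had the largest negative fold changes at 0.5 h, 4 h and 24 h. It stood at 22.8, 22.8, 21.3 and 17.9 CPM in DMSO, 17.6, 19.2, 17.9 and 18.0 (0.5 h), 18.9, 19.9, 19.5 and 18.5 (1 h), and 20.4, 22.4, 19.3 and 18.5 (2 h). It stood at 18.3, 20.2, 17.8 and 17.7 CPM (4 h), and 17.1, 18.5 and 17.1 (24 h). DMSO replicate 4 fell among the treated libraries, so that every group overlapped DMSO. For PSMC3IP the fit gave -0.22 on the log2 scale after 0.5 h (95% interval -0.38 to -0.06) and -0.27 after 24 h (-0.44 to -0.10, adjusted p = 0.208, edgeR quasi-likelihood test). With a replicate block it was the 1 member called at 24 h, at -0.25 (adjusted p = 0.0686), where 1.22% of all genes were called lower. PSMC3IP was lower in 16 of 19 same-numbered pairs. PSME3IP1, the other member by spelling, had -0.10 at 24 h (95% interval -0.21 to 0.02).

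Groups that did not overlap DMSO were few. Above DMSO were PSMD12 at 1 h, PSMB6 and PSMD12 at 2 h, PSMA4 and PSMD12 at 4 h, and PSMA3 at 24 h. Below it were PSMG2 at 1 h, and PSMA5 and PSMG2 at 24 h. At 0.5 h there were 0 of 49. PSMA3, an alpha subunit, was higher in 18 of 19 same-numbered pairs. Over all tested genes the shares lying wholly above DMSO were 2.58% (0.5 h), 2.46% (1 h), 2.65% (2 h), 2.51% (4 h) and 5.22% (24 h), and wholly below 2.39%, 2.91%, 2.20%, 1.92% and 4.27%. PSMB3, a core subunit with the fifth-smallest time-course p in the fit without a block, overlapped DMSO at 2 h by a single library, at 39.1 to 42.8 CPM against 37.4 to 39.3 in DMSO, with a log2 fold change of 0.12 (95% interval -0.0060 to 0.24).

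Differences among harvests were called in more members than differences with dTAG. In the fit with both terms, 25 of 49 members (51.0%) differed among replicate numbers at an adjusted p below 0.1 (edgeR quasi-likelihood test), against 34.7% of all tested genes. The median log2 range over the 4 replicate numbers was 0.15 in the members in that fit. Beside it, the median range over the 6 treatment groups was 0.13 in the fit without a block. The range over replicates was the larger in 27 members, though these ranges cover unlike numbers of levels and of libraries per level. The following 2 genes were chosen after their values were seen. PSMD2, a large scaffold subunit of the cap, stood at 44.7 to 65.3 CPM in the 5 libraries of replicate 1 and at 37.7 to 42.8 CPM in the 6 of replicate 3, a log2 difference of -0.44 (adjusted p over replicates 1.03e-05). PSME1, an interferon-inducible activator subunit, stood at 6.41 to 9.36 CPM in replicate 1 and at 4.08 to 5.59 CPM in replicate 3 (log2 difference -0.67, adjusted p 0.00223 in the edgeR test). For PSMD2 and PSME1, the replicate 1 libraries lay above those of replicate 3 in every treatment group that held both. Depth differed in the opposite order, with medians of 7001408 (replicate 1) and 13718242 counts (replicate 3), and its part in these differences was not tested.

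Around the members, 45 further genes of the pathway were tested in lists chosen with earlier results of these data known. They hold 18 proteasome-associated proteins, 12 regulators of proteasome gene transcription, 9 of the segregase VCP and cofactors, and 6 ubiquitin precursors and activating enzymes. Shares of all genes given beside these lists are background and not a test of the lists. Without a block, 1 of 45 was called at each time, always BACH1 and always higher, where 0.234% (0.5 h), 0.514% (1 h), 0.430% (2 h), 0.526% (4 h) and 0.564% (24 h) of all genes were called higher. BACH1 encodes a repressor that competes at antioxidant response elements with the activator encoded by NFE2L2. It stood at 376.4, 348.0, 385.2 and 349.5 CPM in DMSO, 439.4, 387.5, 440.0 and 425.3 (0.5 h), and 502.8, 471.5, 472.0 and 462.3 (1 h). It stood at 465.1, 454.6, 483.0 and 493.6 CPM (2 h), 471.4, 419.5, 443.1 and 444.1 (4 h), and 414.0, 437.7 and 460.0 (24 h). All 19 treated libraries lay above all 4 of DMSO.

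The log2 fold change of BACH1 was 0.21 after 0.5 h (adjusted p = 0.0863), 0.39 after 1 h (0.000432), 0.38 after 2 h (0.000469), 0.28 after 4 h (0.00533) and 0.26 after 24 h (0.0213), all in the edgeR quasi-likelihood test. The call at 0.5 h was lost without any 1 of the 4 replicates, and those at 4 h and 24 h without replicate 3 or 4, with fold changes of 0.19 to 0.31. All 3 of these calls were also lost in fits of DMSO and the compared group alone, and the 0.5 h call with total counts or without the low-count filter. Its GENCODE span on chromosome 21 (29194071 to 29630751, hg38) is 436.7 kb long, against 63.0 kb in RefSeq, and overlaps LINC00189 and other transcripts on the same strand. LINC00189 held a mean of 18.9 counts per library, and BACH1-IT3, the highest of the overlapping genes, 65.3, against 4545 for BACH1. The assignment of counts over the longer span to BACH1 remains uncertain.

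NFE2L1, NFE2L2, DDI2 and NGLY1 did not pass the test without a block. NFE2L1 stood at 27.7 ± 3.36 CPM in DMSO (SD, n = 4), with a log2 fold change of -0.03 for the mean of the 5 time points (95% interval -0.19 to 0.14). NFE2L2 had 0.02 (-0.06 to 0.10), DDI2 -0.01 (-0.09 to 0.06), and NGLY1, whose product strips glycans from the NFE2L1 protein, 0.02 (-0.10 to 0.13). With a replicate block, SEL1L, part of a ubiquitin ligase complex of the endoplasmic reticulum, was called higher at 4 h (0.13, adjusted p = 0.0370, edgeR) and 24 h (0.19, adjusted p = 0.00289, edgeR), where 1.55% and 1.43% of all genes were called higher. Without a block SEL1L was called at 24 h with total counts in place of TMM factors (0.19, adjusted p = 0.0667, edgeR). FAF2, a VCP cofactor, was called with the block at 4 h (0.13, adjusted p = 0.0431, edgeR) and by DESeq2 without it. Over the time course with the block, 4 of the 45 pathway genes were called, where 9.01% of all genes were. They were BACH1 (adjusted p = 3.68e-06), SEL1L (0.00505), FAF2 (0.0476) and UBXN7, another cofactor (0.0622), all in edgeR. In the lists of proteasome-associated proteins and of ubiquitin genes, 0 of 18 and 0 of 6 were called at any time without a block (edgeR), with 0 and 0 to 1 at an unadjusted p below 0.05. Of all genes, 0.476% to 1.25% were called at single times, and 7.10% to 9.42% had an unadjusted p below 0.05.

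**Figure D5:**
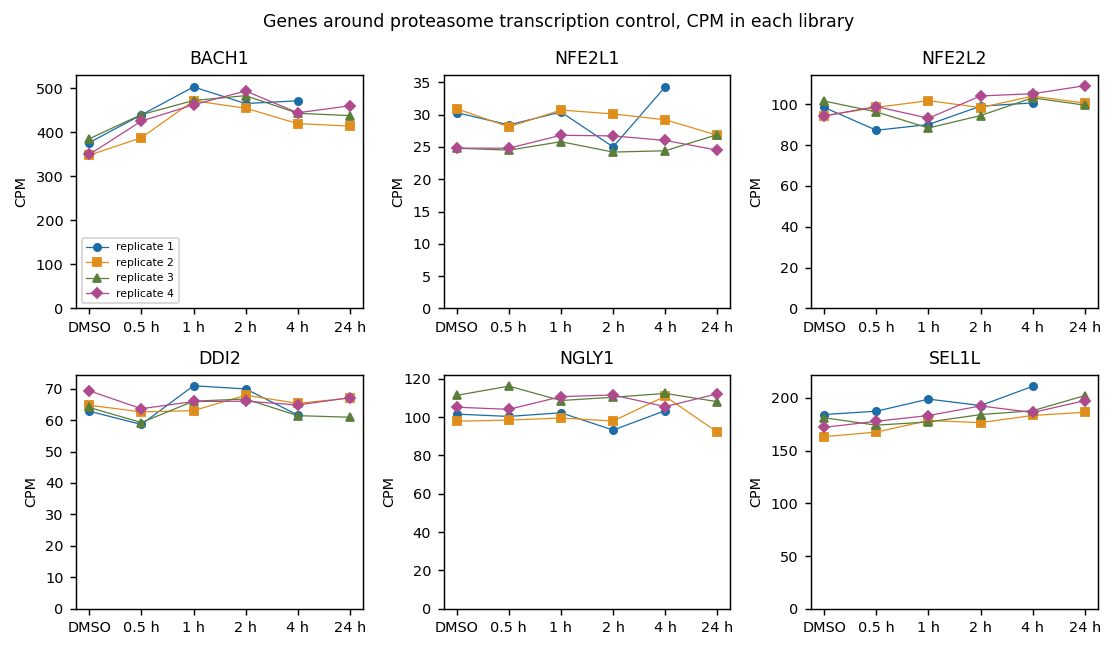
CPM in every library for 6 regulators of proteasome gene transcription, by time with dTAG, on linear axes from 0, with lines joining libraries of the same replicate number. All 19 treated libraries of BACH1 (387.5 to 502.8 CPM) lie above DMSO (348.0 to 385.2 CPM), whereas NFE2L1, NFE2L2, DDI2 and NGLY1 overlap DMSO at all 5 times. SEL1L at 24 h (186.3 to 202.1 CPM) lies above DMSO (163.2 to 184.2 CPM).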

How the data were processed

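Nascent transcription was measured by PRO-seq in 23 libraries grouped by their labels. The authors deposited raw read counts per gene: per the study's methods, adapters were removed with cutadapt (1.8.1), duplicates were collapsed by molecular identifier, reads were aligned with Bowtie2 (2.4.4), SAMtools (1.9) was used, and counts were taken in genes, on hg38 per the labels. The annotation and use of strand in counting were not given in the sources used here. The 24 h group holds replicates 2, 3 and 4.

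Gene identifiers were matched to GENCODE v44 (60463 of 60605). All 23 libraries were fitted together with edgeR 4.0.16 (R 4.3.3): filterByExpr (minimum count 10, total 15), TMM factors, group as the only term, two-sided quasi-likelihood F-tests and Benjamini-Hochberg adjustment over 26057 genes, with calls at 0.1. Intervals (95%) used the fitted error, never below the counting error of the group sums. Per-library values are TMM-scaled CPM.

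Alternatives were median-of-ratios factors, total counts, no filter, DESeq2 1.42.0, each replicate left out, only the compared groups, members overlapping no gene, and replicate number as a block. Replicate numbers were taken to mark a shared harvest, since the study's methods describe replicates handled at different times of 1 day. Over all genes, deviations from group means correlated at a mean of 0.287 in same-numbered libraries (55 pairs) and -0.0825 in others (165 pairs). By replicate number the mean was 0.578 (replicate 1), 0.0896 (replicate 2), 0.434 (replicate 3) and 0.141 (replicate 4).

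Members, roles and pathway lists were chosen with earlier results of these data known. The text names members called in any fit, the 5 with the smallest time-course p without a block, catalytic and inducible beta subunits, the extremes of density in each role, members below the filter, TRPS1, NFE2L1, NFE2L2, DDI2, NGLY1 and called pathway genes. Other genes were chosen after their values were seen.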

Additional observations from a re-analysis of the deposited data

Results flagged for a closer look

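PSMB9 in replicate 1 at 0.5 h lay apart from its group, at 7.48 CPM against 8.24 to 8.30 CPM in the other 3 libraries. PSMB3 in DMSO replicate 3 was the highest of its group, at 39.3 CPM against 37.4 to 37.7 CPM. Chance sets about 1 in 20 groups apart in this way, and many groups of members were examined.

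With a replicate block, 4 pathway genes differed among the 5 dTAG time points themselves (edgeR quasi-likelihood test), against 7.71% of all tested genes. The adjusted p was 0.0123 for BACH1, 0.0207 for SEL1L, 0.0484 for UBXN7 and 0.0663 for FAF2. Without the block none of the 4 passed (adjusted p of 0.165 to 0.688). This comparison was chosen after seeing the data. No member passed it, with 3 of 49 at an unadjusted p below 0.05 in the blocked fit, against 18.1% of all genes.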

How the results depend on the processing

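With a replicate block, 1 member was called at 24 h and 1 over the time course, where 0 were called without it. The block changed no other call among members. The number called remained 0 under each other alternative. The median fold change of the members ranged from 0.0244 to 0.0614 at 0.5 h (the highest over members overlapping no gene), from 0.0028 to 0.0422 at 1 h, from 0.0011 to 0.0288 at 2 h, from 0.0004 to 0.0437 at 4 h and from -0.0251 to 0.0219 at 24 h. The lowest values at 1 h and 4 h and the highest at 24 h came from total counts without scaling factors. Leaving out a replicate gave medians of 0.0244 to 0.0457, 0.0157 to 0.0411, 0.0045 to 0.0197, 0.0161 to 0.0413 and -0.0251 to -0.0018 at these times. For the mean of the 5 time points, leaving out a replicate turned the sign for PSMB7 (-0.0375 to 0.0225, positive without replicate 2), PSMB9 (-0.104 to 0.0438, positive without replicate 4 and, at 0.0407, without replicate 2), PSMB10 (-0.0372 to 0.0994, negative without replicate 1), NFE2L2 (-0.0132 to 0.0575), DDI2 (-0.0392 to 0.0067) and NGLY1 (-0.0030 to 0.0189), the last 3 without replicate 4. None of these passed the test in any fit. Without 1 replicate, PSMB5 at 24 h ranged from 0.0190 to 0.158 and PSMB8 for the mean of the times from -0.168 to -0.0139. Intervals reached past 1.5-fold for PSMA8 and PSME1, and the median half-width over members was 0.152 to 0.164 on the log2 scale at single times. A call needed more than an interval clear of 0: at 24 h PSMC3IP (-0.27) and PSMG2 (-0.18) were not called without a block. Small differences in most members could therefore have been missed. The causes were not tested.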
